A study of Mus musculus with 15 samples.

Results

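The comparison described here set 5 whole epididymides from Plag1 knockout mice (KO) against 5 from wild-type mice (WT), gene by gene, and repeated the counts of called genes without library KO-738. The libraries were taken by their titles: 5 KO and 5 WT of the 15 deposited, the other 5 being heterozygotes (HET), which entered the shared estimate of the spread and, in the fits that have it as a term, the estimate for the range of the animal numbers. All mice were 7 weeks old, the strain label of every animal reads Brown Swiss, and each library was made from 1 animal without pooling. By the labels the genotypes are Wild type, Plag1 -/+ and Plag1 -/-, and the allele itself is not described. Litter, collection day and hour are not given, nor the meaning of the animal numbers. Of 41591 gene entries, 19388 had enough counts to be tested.

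Plag1 encodes a zinc finger transcription factor known for its role in growth and as an oncogene in salivary gland tumours. The epididymis is the long coiled duct in which sperm leaving the testis mature, become motile and are stored. Its epithelium secretes proteins into the lumen and takes up fluid and proteins from it, and a sheath of smooth muscle, connective tissue, blood vessels and immune cells surrounds the duct.

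The libraries held 20.3 to 27.8 M counts in WT and 25.3 to 42 M in KO (M, mega). The share of ribosomal RNA genes was 1.49% in KO-738, against 0.0986% to 0.158% in the other 4 KO libraries and at most 0.472% in WT. In library KO-739, markers of skeletal muscle summed to 5961 CPM (counts per 1 M counts of the scaled library), against 62.2 to 85.9 in the other KO libraries and 63.6 to 111 in WT. The WT animals were all numbered 700 or above, while 3 of the 5 KO animals (KO-694, KO-695 and KO-696) were numbered below 700. Of the HET animals, 2 were below 700 (HET-692 and HET-693) and 3 above, so that a term for the number range could be fitted beside the genotype, and counts with that term are given with the results. Within WT and KO alone, every animal below 700 was KO. Epididymal secretory markers summed to 109099 to 123880 CPM in WT and 103459 to 124957 CPM in KO, so that the tissue label held in all 10 libraries.

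Plag1 RNA was lower in every KO library. It stood at 11.9, 13, 12, 12.5 and 14 CPM in WT and at 8.17, 6.99, 7.9, 9.36 and 9.16 CPM in KO, where the fourth value is KO-738. The groups did not overlap, and KO-738 was the highest of the KO values by a small margin. The log2 fold change was -0.61 ± 0.10 (SE, n = 5 and 5), with an adjusted p of 0.00493 by edgeR's quasi-likelihood test with Benjamini-Hochberg adjustment over all genes. Without KO-738 it was -0.65, with an adjusted p of 0.000867 by the same test. Transcripts of the knocked-out gene were still counted in all KO libraries; the labels do not say which part of the gene is missing, so that this level checks the labels only as a difference between the groups.

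Among all 19388 tested genes, 1163 changed between KO and WT at an adjusted p under 0.05 (edgeR's quasi-likelihood test), or 6%. Of these, 853 were higher in KO, or 4.4%, and 310 were lower, or 1.6%. Changes were mostly modest, with a median log2 fold change of 0.68 among the genes that rose and -0.51 among those that fell, and 243 rose and 34 fell by more than 2-fold. The p-values measure the spread between these animals.

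Leaving out KO-738 raised the count to 2923 genes, or 15% of 19539 tested, with 1905 higher (9.75%) and 1018 lower (5.21%). Counts of list members without KO-738, given below, are to be read beside these shares. Those with all KO libraries are to be read beside 4.4% higher and 1.6% lower. Of the 1163 genes, 1156 were called in both fits in the same direction and 7 were lost. Among genes tested in both fits, 2873 were called without KO-738, and 1717 were called only without it. The genes that rose in both had a median log2 fold change of 0.68 with all KO libraries and 0.76 without KO-738, and those that fell in both went from -0.50 to -0.59. In 518 of the 1163 genes, KO-738 lay inside the range of the WT libraries. The KO and WT libraries did not overlap in 817 tested genes with all 5 KO libraries (4.21%), of which 551 had KO higher (2.84%) and 266 lower (1.37%), and in 2489 without KO-738 (12.8%).

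The place of each KO library was measured at genes it had no part in choosing. For each KO library in turn, genes were called from the other 4 KO libraries against WT, and the library was placed on a scale on which 0 is the WT mean and 1 the mean of those 4. The median position was 0.87 for KO-694, 0.93 for KO-695, 1.17 for KO-696 and 1.06 for KO-739. It was 0.13 for KO-738, over 2873 genes. The scales are not the same: for every library but KO-738, the 4 libraries that chose the genes and set the value 1 include KO-738. Their mean then lies nearer to WT, which raises the positions of the other KO libraries. KO-738 lay beyond the WT range, on the side of the other KO libraries, in 27% of those genes, against 86.1% to 96.2% for the other KO libraries at theirs.

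**Figure D1:**
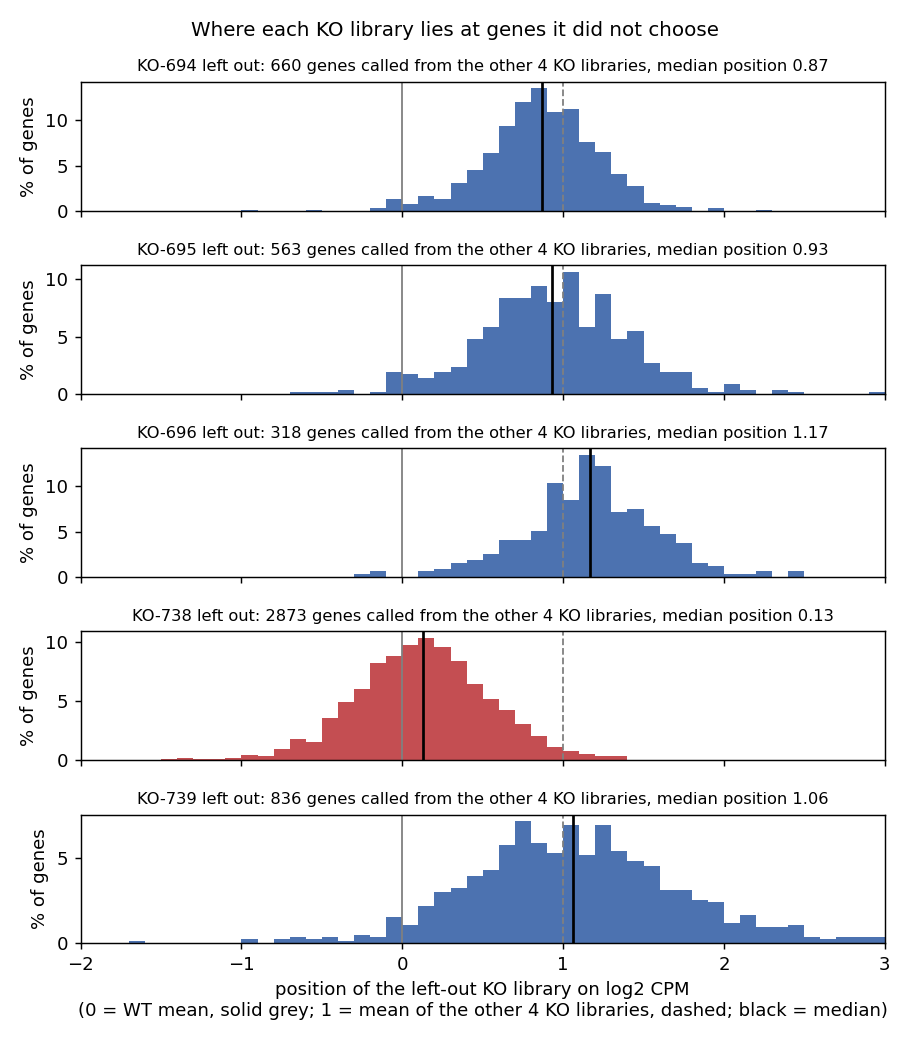
Each panel shows, for 1 left-out KO library, the percent of genes (vertical axis) at each position on the log2 CPM scale between the WT mean (0) and the mean of the other 4 KO libraries (1). The genes are those called without that library, and the black line marks the median. KO-738 centres at 0.13 and the others at 0.87 to 1.17, where the mean that defines 1 includes KO-738.

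The sets of genes and the scale differed between those panels. Both KO animals numbered above 700 were therefore also placed at 1 common set, the 3136 genes called from the 3 KO animals numbered below 700 against WT. The mean of these 3 was the value 1 for both. There KO-738 had a median position of 0.09 and was beyond the WT range in 25.2% of the genes. KO-739 had a median position of 0.64 and was beyond the WT range in 68.6%. The order was the same among genes that rose (0.10 and 0.71) and among those that fell (0.07 and 0.57).

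Genes of the extracellular matrix, the scaffold of the connective tissue around the duct, were mostly higher in KO. In whole tissue, fewer cells of a type and less RNA per cell cannot be told apart, and the same holds for more cells and more RNA. Of 40 tested collagen chains, 24 rose and 1 fell in KO, with a median log2 fold change of 0.55 against -0.01 over all tested genes. Without KO-738, 26 rose, 1 fell and the median was 0.63.

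Col4a4, a chain of basement membrane collagen, had the smallest p of the collagens. It stood at 58.8, 56.1, 56.3, 58.5 and 63.4 CPM in WT and at 82.4, 75, 80.4, 67.4 (KO-738) and 79.7 CPM in KO. KO-738 was the lowest KO library, yet above every WT library, and the log2 fold change was 0.39 ± 0.05 (adjusted p 0.00336, edgeR). Col6a3, a chain of the beaded collagen VI filaments, rose with a log2 fold change of 1.03 ± 0.17, Col15a1 with 0.94 ± 0.15 and Col4a6 with 0.59 ± 0.10, and all 3 held all KO libraries above all WT libraries. The fibril-forming chains Col1a1, Col1a2 and Col3a1 rose too, by 0.84, 0.91 and 0.83 on the log2 scale, but there KO-738 lay inside the WT range: Col1a2 was at 250 CPM in KO-738, 185 to 272 in WT and 404 to 560 in the other KO libraries. Col24a1, a minor fibrillar chain, was the one that fell.

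Of 58 matrix glycoproteins and proteoglycans, 28 rose and 1 fell, and 34 rose and 1 fell without KO-738. Sparc, a collagen-binding protein that matrix-producing cells secrete, stood at 544, 560, 589, 503 and 531 CPM in WT and at 872, 999, 972, 674 (KO-738) and 1107 CPM in KO. KO-738 was above the WT libraries and well below the other KO libraries, and the log2 fold change was 0.76 ± 0.11 (adjusted p 0.00341, edgeR). Fmod and Fbln5, which help to assemble collagen and elastic fibres, rose by 0.60 and 0.69 on the log2 scale with the groups apart, as did Matn2, a matrix adaptor protein, by 0.59. Tnc, the gene of tenascin C, fell by 0.60 on the log2 scale. In 20 of the 35 glycoprotein genes called without KO-738, KO-738 was beyond the WT range (57.1%), against 11 of 27 collagens (40.7%) and 27% of all such genes.

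Among enzymes that process and degrade the matrix, the members that passed were all higher in KO, and most members did not pass. Of 20 genes for crosslinking and collagen processing, 8 rose, and of 43 metalloproteases, ADAMTS proteases and their TIMP inhibitors, 11 rose, with none lower in either list. Without KO-738 these counts were 11, and 18 with 2 lower. Timp2, a metalloprotease inhibitor, rose from 97.2 to 110 CPM in WT to 169, 172, 189, 120 (KO-738) and 212 CPM in KO. Adamts2, which trims procollagen, had a log2 fold change of 1.10 ± 0.16 (adjusted p 0.00341, edgeR) and Loxl2, a crosslinking oxidase, one of 0.86 ± 0.16. In each of these 3 genes KO-738 was nearest to WT without overlapping it.

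The counts for the matrix depend on single libraries. Leaving out 1 library other than KO-738 left 11 to 19 rising collagens, the lowest without KO-696, and 17 to 24 rising glycoproteins, also lowest without KO-696. With the number range of the animals as a term in the fit, 6 collagens and 12 glycoproteins rose, and 0 of either among the animals numbered 700 and above, where KO is only KO-738 and KO-739. The crosslinking genes that rose were 4 to 6 on leaving out 1 other library and 2 with the number range as a term, and the proteases and inhibitors 8 to 10 and 4.

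Fibroblast markers overlap with these lists, since they include Col1a1, Col1a2, Col3a1 and the proteoglycans Dcn and Lum. Of 15 such markers, 7 rose and 1 fell (46.7% and 6.67%), and 10 rose and 1 fell without KO-738. Lum, the proteoglycan lumican that spaces collagen fibrils, stood at 12.7, 21.5, 20.6, 12.5 and 10.8 CPM in WT and at 31.4, 34.9, 43.4, 14.9 (KO-738) and 90.4 CPM in KO. KO-738 lay inside the WT range and KO-739 was far above the other KO libraries, and the log2 fold change was 1.46 ± 0.37 (adjusted p 0.0364, edgeR). Thy1, a surface protein of fibroblasts, rose by 0.56 on the log2 scale and was the 1 marker of 11 called without KO-738 in which KO-738 was beyond the WT range. Gpx3, a secreted glutathione peroxidase, fell by 0.67 on the log2 scale, and Pdgfra, a growth factor receptor of fibroblasts, had a difference of 0.18 (adjusted p 0.356, edgeR). On leaving out 1 library other than KO-738, 2 to 6 fibroblast markers rose, the lowest without WT-709 and also without KO-696, and 0 with the number range as a term.

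Blood vessel markers rose in KO, and KO-738 mostly lay with the other KO libraries. Of 17 blood endothelium markers, 12 rose and 0 fell, and 13 rose without KO-738. Cdh5, the adhesion protein of endothelial junctions, stood at 14.4, 14.6, 13, 12.2 and 13.8 CPM in WT and at 20.6, 24.9, 27.1, 20.4 (KO-738) and 29.2 CPM in KO. All KO libraries were above all WT libraries, and KO-738 was close to KO-694. Cdh5 had a log2 fold change of 0.85 ± 0.12 (adjusted p 0.00336, edgeR) and of 0.91 without KO-738.

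Mmrn2 and Vwf, which endothelial cells secrete, rose by 0.75 and 0.54 on the log2 scale, and the endothelial phosphatase Ptprb by 0.77, each with the groups apart. The receptors Kdr, Flt1, Tie1 and Tek, through which vessels respond to VEGF and angiopoietins, rose by 0.70, 0.59, 0.73 and 0.44. In 12 of the 13 endothelial genes called without KO-738, KO-738 was beyond the WT range, at a median position of 0.71. Whether this share differs from that of all genes was not tested. Of these calls, 7 to 12 were made on leaving out 1 other library, the lowest without WT-723 and also 7 without KO-696, and 8 with the number range as a term.

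In markers of lymphatic vessels KO-738 lay with WT, and in those of the mesothelium, the outer lining of the organ, its place was mixed. Of 6 lymphatic endothelium markers 4 rose: Lyve1, Flt4, Mmrn1 and Prox1, by 1.07, 0.63, 1.20 and 1.37 on the log2 scale. In Lyve1, a hyaluronan receptor, WT stood at 1.5, 3.31, 3.07, 2.63 and 2.04 CPM and KO at 5.81, 5.62, 6.37, 2.47 (KO-738) and 6.06 CPM. KO-738 lay within WT there and was beyond the WT range in 0 of the 4 genes; without WT-709 or without KO-696, 0 of the 4 were called. Of 11 mesothelium markers 5 rose, 7 without KO-738 and 2 with the number range as a term. In 3 of those 7 KO-738 was beyond the WT range (42.9%, against 27% of all such genes). Its median position at the 7 was 0.11. Aldh1a2, a retinoic acid synthesising enzyme, stood at 16, 16, 17.8, 17.2 and 17.7 CPM in WT and at 32.4, 25.7, 33.6, 24.4 (KO-738) and 39.6 CPM in KO, with all KO libraries above WT and a log2 fold change of 0.88 ± 0.12 (adjusted p 0.00336, edgeR). Wt1, a transcription factor of the urogenital mesothelium, rose by 1.84 ± 0.27 on the log2 scale. Of 17 pericyte and smooth muscle markers 2 rose, and 3 without KO-738.

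The mean level of the macrophage markers was above all WT libraries in every KO library but KO-738. Of 18 such genes, 10 rose, 0 fell and 8 did not pass, while 16 rose without KO-738. In 4 of these 16 (25%) KO-738 was beyond the WT range, close to the 27% of all genes called without it. Lyz2, the lysozyme of myeloid cells, stood at 19.2, 23.5, 21.8, 21 and 22 CPM in WT and at 47.6, 51.4, 36.3, 22.8 (KO-738) and 58.3 CPM in KO. KO-738 lay inside the WT range and the other KO libraries were all above it. The log2 fold change was 1.01 ± 0.19 (adjusted p 0.01, edgeR) with all KO libraries and 1.18 without KO-738. Csf1r, the receptor for the growth factor that macrophages need, rose by 0.65 on the log2 scale, the chemokine receptor Cx3cr1 by 0.64 and the protease Ctss by 0.52.

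The whole macrophage list averaged 0.03 above the WT mean in KO-738 on the log2 scale and 0.62 to 0.79 above it in the other KO libraries. Its summed level was 151 to 178 CPM in WT, 174 in KO-738 and 260 to 291 in the others. Between 7 and 9 markers were called on leaving out 1 library other than KO-738, but 1 with the number range as a term. T and NK cell markers changed in 0 of 7 genes in the edgeR test (1 had an unadjusted p under 0.05, and DESeq2 and limma voom called 0).

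Of 27 complement components and regulators, 10 rose, and 14 without KO-738. C7, a component of the membrane attack complex, stood at 34.2, 39, 35.5, 34.4 and 38.8 CPM in WT and at 90.6, 79.6, 103, 38.4 (KO-738) and 92.6 CPM in KO. The 4 other KO libraries were all far above the highest WT library, and KO-738 was within WT. C7 had a log2 fold change of 1.15 ± 0.19 (adjusted p 0.00569, edgeR) and of 1.34 without KO-738. C3, the central component, rose by 1.07 ± 0.22, the inhibitor Serping1 by 0.60 and the protease C1s1 by 0.52. On leaving out 1 other library 2 to 9 complement genes were called, the lowest without KO-696, and with the number range as a term 0 were.

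**Figure D2:**
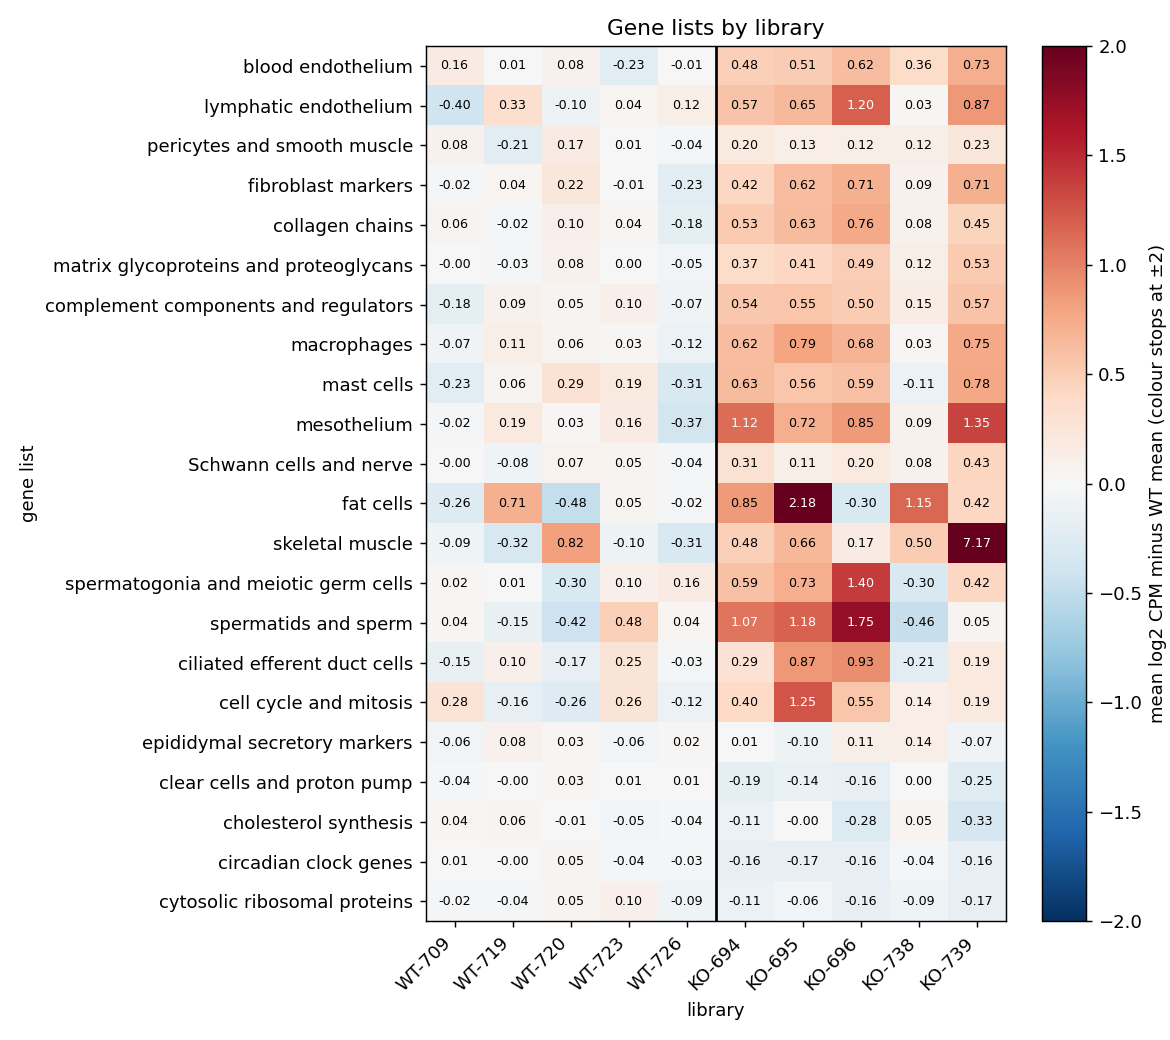
Rows are gene lists, columns the WT and KO libraries; each cell gives the mean log2 CPM of the tested members minus the WT mean, in colour and as a number. KO-738 is within 0.15 of the WT mean for collagens (0.08), macrophages (0.03) and complement (0.15) and at 0.36 for blood endothelium; KO-739 alone is high for skeletal muscle (7.17).

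Among secreted signals, Igf1, a ligand of the insulin-like growth factor (IGF) system, rose. It stood at 22.1, 28.8, 25.6, 27.9 and 23.6 CPM in WT and at 65.8, 68.9, 60.4, 32.4 (KO-738) and 65.2 CPM in KO. KO-738 was above every WT library, but nearer to WT than to the other KO libraries. The log2 fold change was 1.19 ± 0.16 (adjusted p 0.00336, edgeR) and 1.35 without KO-738 (adjusted p 2.68e-06, edgeR).

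The binding proteins Igfbp4, Igfbp3 and Igfbp7 rose by 0.68, 0.56 and 0.42 on the log2 scale, and the receptor inhibitor Grb10 by 0.48, all with the groups apart. Pappa2, a protease that frees IGF from its binding proteins, fell by 1.11 on the log2 scale, and there KO-738 at 4.54 CPM lay inside the WT range of 4.39 to 5.62 while the other KO libraries were at 1.28 to 2.08. The receptor Igf1r had a log2 difference of -0.14 (adjusted p 0.494, edgeR). Igf2, a textbook target of PLAG1, had a difference of -0.35 (adjusted p 0.185, edgeR) with all KO libraries and fell by 0.48 on the log2 scale without KO-738 (adjusted p 0.0394, edgeR). It was at 14.8 to 18.3 CPM in WT, at 9.51 to 10.6 in the 3 KO animals numbered below 700 and at 17.4 and 17 in KO-738 and KO-739. Of 19 IGF genes, 5 rose and 1 fell (26.3% and 5.26%, against 4.4% and 1.6% of all genes). The counts were 7 and 2 without KO-738. With the number range as a term, 2 rose and 0 fell.

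In the PDGF, VEGF and EGF families 11 of 35 genes rose and 1 fell, and 13 rose and 3 fell without KO-738. Leaving out 1 other library left 3 to 7 that rose, the lowest without KO-696, and the number range as a term left 0. Of 29 Wnt ligands and antagonists, 2 rose and 1 fell (6.9% and 3.45%, against 4.4% and 1.6% of all genes). The counts were 6 and 2 without KO-738, and 0 in either direction with the number range as a term. Sfrp1 and Sfrp2, both secreted Wnt modulators, moved apart. Sfrp1 stood at 36.1 to 40.8 CPM in WT and at 55.3, 69.3, 79.2, 44 (KO-738) and 66.4 CPM in KO. Sfrp2 stood at 13.7 to 17.4 CPM in WT and at 7.39, 8.72, 6.23, 13.4 (KO-738) and 8.78 CPM in KO. In both genes the groups were apart with KO-738 at the edge of WT, and the log2 fold changes were 0.71 ± 0.12 and -0.79 ± 0.16 (adjusted p 0.00613 and 0.0139, edgeR). Bmper, a secreted regulator of BMP, rose by 1.42 ± 0.27 on the log2 scale, and Fgf10, a growth factor of developing ducts, by 0.78 ± 0.15.

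Tenm3, a cell-surface teneurin that guides axons, had the smallest adjusted p of the 69 axon guidance genes. It stood at 6.18, 7.07, 6.29, 6.79 and 7.58 CPM in WT and at 12.5, 12.2, 12.9, 10 (KO-738) and 12.3 CPM in KO. The KO libraries lay within a narrow band well above WT, and KO-738 was the nearest of them to WT. The log2 fold change was 0.82 ± 0.09 (adjusted p 0.000824, edgeR) and 0.88 without KO-738. Robo4, a receptor of blood vessels, rose by 0.74 on the log2 scale, and Slit1, a ligand of the Robo family, fell by 0.66, both with the groups apart. In all 7 axon guidance genes rose and 1 fell (10.1% and 1.45%, against 4.4% and 1.6% of all genes). The counts were 14 and 4 without KO-738, where 9.75% of all genes rose and 5.21% fell. Only 2 rose without KO-696, 3 in the fit of the WT and KO libraries alone and 2 with the number range as a term, while 1 fell in each of these.

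Transcription factors that pattern the body axis and the duct moved in both directions. Of 32 Hox genes, 6 rose and 3 fell (18.8% and 9.38%, against 4.4% and 1.6% of all genes). The counts were 9 and 5 without KO-738. Hoxa5 stood at 5.95, 5.72, 5.72, 5.52 and 5.99 CPM in WT and at 9.68, 8.3, 10.7, 7.36 (KO-738) and 10.1 CPM in KO, a log2 fold change of 0.67 ± 0.10 (adjusted p 0.00336, edgeR). Hoxb9 stood at 89, 95.7, 80.7, 85.8 and 85.2 CPM in WT and at 71.5, 63.7, 53.5, 68 (KO-738) and 59.9 CPM in KO, a log2 fold change of -0.46 ± 0.07 (adjusted p 0.00341, edgeR). In both genes all KO libraries lay on one side of WT, and KO-738 was the lowest KO library for Hoxa5 and lay among the others for Hoxb9. Hoxc4 and Hoxc6 rose, and Hoxb4 and Hoxd10 fell. All Hox calls beyond Hoxa5 and Hoxb9 had adjusted p-values of 0.0227 or more, and leaving out 1 library other than KO-738 left 1 to 4 Hox genes that rose and 1 to 3 that fell, with 1 in each direction under the number range term.

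Among 30 other transcription factors of the duct, Osr1, Sox17 and Nr2f1 rose and Evx1, Gata3 and Tbx3 fell. That is 10% each way, against 4.4% and 1.6% of all genes. Of the 30, 7 rose and 4 fell without KO-738. Without KO-696, 0 of them rose and 1 fell. Evx1, a homeobox gene of the posterior body, was low throughout. It stood at 0.922, 0.401, 0.393, 0.694 and 0.53 CPM in WT and at 0.0387, 0.0559, 0, 0.157 (KO-738) and 0 CPM in KO. The groups did not overlap, and the adjusted p was 0.00436 by edgeR. Gata3, a regulator of the duct from which the epididymis forms, fell by 0.38 on the log2 scale. Within the PLAG family itself Plagl1, an imprinted relative of Plag1, fell by 0.32 on the log2 scale, and Plagl2 had a difference of -0.08 (adjusted p 0.472, edgeR). Igf2bp2, which encodes an RNA-binding protein, rose by 1.06.

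Penk, the enkephalin precursor, lies on the same chromosome close to Plag1 and rose. Plag1 is at chromosome 4, bases 3898769 to 3938430, and Penk at bases 4133536 to 4138815 (RefSeq, GRCm38.p6). Penk stood at 116, 128, 140, 135 and 122 CPM in WT and at 198, 173, 192, 169 (KO-738) and 213 CPM in KO. All KO libraries were above WT with KO-738 the lowest of them, and the log2 fold change was 0.56 ± 0.08 (adjusted p 0.00336, edgeR). Of 27 tested genes listed on chromosome 4 within 5 Mb of Plag1, only Penk rose with all KO libraries. Only Plag1 itself fell (7.41% called, against 6% of all genes). Without KO-738, 2 rose and 2 fell, with Gm11780 at 1.11 and Ubxn2b at -0.26 on the log2 scale added. The 27 were taken by listed position, and some, such as Cd99 at base 48 and Dhrsx at base 14351, are listed close to the first base. Whether these are positions on the assembled chromosome near Plag1 was not checked, so the 27 and its share are uncertain. Chromosome 4 as a whole had 4.65% of its genes called.

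Among genes of the epithelium, the epididymal secretory markers were called at a share near that of all genes. Of 35, 1 rose and 1 fell (2.86% each, against 4.4% and 1.6% of all genes). The counts were 2 and 3 without KO-738, where 9.75% of all genes rose and 5.21% fell. On leaving out 1 other library 0 to 4 rose and 0 fell. Of 15 genes of clear cells and the proton pump 2 fell (13.3%), and 5 without KO-738, but 0 or 1 on leaving out 1 other library. Ptgds, the prostaglandin D synthase that the duct secretes, stood at 1744, 1398, 1392, 1542 and 1453 CPM in WT and at 910, 851, 668, 1569 (KO-738) and 870 CPM in KO. KO-738 lay inside the WT range and the other KO libraries were well below it, with a log2 fold change of -0.63 ± 0.17 (adjusted p 0.0406, edgeR) and -0.87 without KO-738. Sult1e1, an estrogen sulfotransferase, rose by 0.57 on the log2 scale. Crisp1, a major sperm-coating protein, had a difference of -0.44 (adjusted p 0.113, edgeR) and fell by 0.61 on the log2 scale without KO-738. Gpx5, a secreted peroxidase of the first part of the duct, had a difference of 0.15 (adjusted p 0.406, edgeR).

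At genes of solute carriers, taken by name whatever their place in the cell, and of brush-border and catabolic enzymes, KO-738 mostly lay with WT. It did so over all genes called without it as well. Of 315 solute carrier (SLC) transporters, 13 rose and 9 fell (4.13% and 2.86%, against 4.4% and 1.6% of all genes), and 29 rose and 40 fell without KO-738. In 11 of the 69 called without it (15.9%), KO-738 was beyond the WT range, against 27% of all genes called without it. Whether these shares differ was not tested. Single libraries moved these counts: without KO-696, 4 transporters rose and 0 fell, without WT-709 4 rose and 2 fell, and with the number range as a term 1 rose and 0 fell. Of 25 brush-border and catabolic enzymes, 4 rose and 4 fell, and 8 rose and 6 fell without KO-738. Without WT-709, and also in the fit of WT and KO alone, 0 rose and 1 fell, and the number range as a term left 0 in either direction. Mep1a, the meprin protease of brush borders, stood at 22.8, 19.3, 20.5, 24 and 24.1 CPM in WT and at 8.55, 7.27, 4.96, 20.1 (KO-738) and 10 CPM in KO. KO-738 was inside the WT range and the other KO libraries were far below it. The log2 fold change was -1.13 ± 0.27 (adjusted p 0.0287, edgeR) and -1.53 without KO-738 (adjusted p 9.31e-05, edgeR). Treh (trehalase), Azgp1 (zinc-alpha-2-glycoprotein) and the neutral endopeptidase Mme fell by 2.37, 1.28 and 0.57 on the log2 scale, also with KO-738 among WT. In Treh 1 WT library, WT-720, was at 1.5 CPM, far below the 5.87 to 8.39 CPM of the others.

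Lrp2, the endocytic receptor megalin, was called only without KO-738. It stood at 276, 246, 239, 280 and 291 CPM in WT and at 192, 164, 149, 296 (KO-738) and 165 CPM in KO. KO-738 was above every WT library while the other KO libraries were all below WT. The log2 difference was -0.46 ± 0.14 (adjusted p 0.0683, edgeR) with all KO libraries and -0.67 ± 0.07 (adjusted p 9.68e-05, edgeR) without it. The other genes with the smallest p among those that fell only without KO-738 were Cbs (cystathionine beta-synthase), Ces1e (a carboxylesterase), Wfdc16 and the vesicle regulator Rab3c, and their log2 changes without KO-738 were -1.22, -0.87, -0.89 and -0.88. Among those that rose only without it were Dock2, an activator of leukocyte migration, by 0.88, and Ube2l6, which conjugates an interferon-induced modifier, by 0.48.

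Cholesterol synthesis genes, too, were called by edgeR only without KO-738. Of 23 genes, 0 were called with all KO libraries by edgeR (6 had an unadjusted p under 0.05, DESeq2 called 1 and limma voom 0), and 10 fell without KO-738, by 0.20 to 0.51 on the log2 scale. They included Idi1, Dhcr7 and Fdps, which fell by 0.38, 0.51 and 0.28. KO-738 was beyond the WT range in 0 of the 10, against 27% of all genes called without it. The other KO libraries did not move alike in the whole list. Its mean log2 CPM minus the WT mean was -0.28 in KO-696 and -0.33 in KO-739, but -0.11 in KO-694 and -0.00 in KO-695. It was 0.05 in KO-738 and -0.05 to 0.06 in the WT libraries. Cell cycle genes likewise went from 0 of 30 (19 had an unadjusted p under 0.05, DESeq2 called 9 and limma voom 0) to 11 of 30 that rose. The cell cycle list averaged 1.25 above the WT mean on the log2 scale in KO-695, and 0.19 to 0.55 in KO-694, KO-696 and KO-739. KO-738 was at 0.14, and both it and KO-739 (0.19) lay inside the range of the WT libraries, -0.26 to 0.28.

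Circadian clock genes moved in opposite directions. Arntl, a core activator of the clock, stood at 13.2, 12.6, 12.4, 12.2 and 13.2 CPM in WT and at 18.2, 18.6, 20.9, 14.3 (KO-738) and 17.5 CPM in KO. Its partner gene Npas2 rose with it, by 0.78 on the log2 scale against 0.49 for Arntl. Per2, a repressor of the clock, stood at 16.6, 13.9, 13.7, 15.5 and 13 CPM in WT and at 8.44, 9.7, 8.43, 11.9 (KO-738) and 8.63 CPM in KO. The groups were apart in all 3 genes, with KO-738 nearest to WT in each. Dbp, an output gene of the clock, fell by 0.76, and Ciart by 0.56. In all 2 of 19 clock genes rose and 3 fell (10.5% and 15.8%, against 4.4% and 1.6% of all genes). The counts were 3 and 7 without KO-738. Without KO-696, and also in the fit of WT and KO alone, 1 rose and 1 fell, and with the number range as a term 0 of the 19 were called. The time of day at which each animal was sampled is not in the labels.

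**Figure D3:**
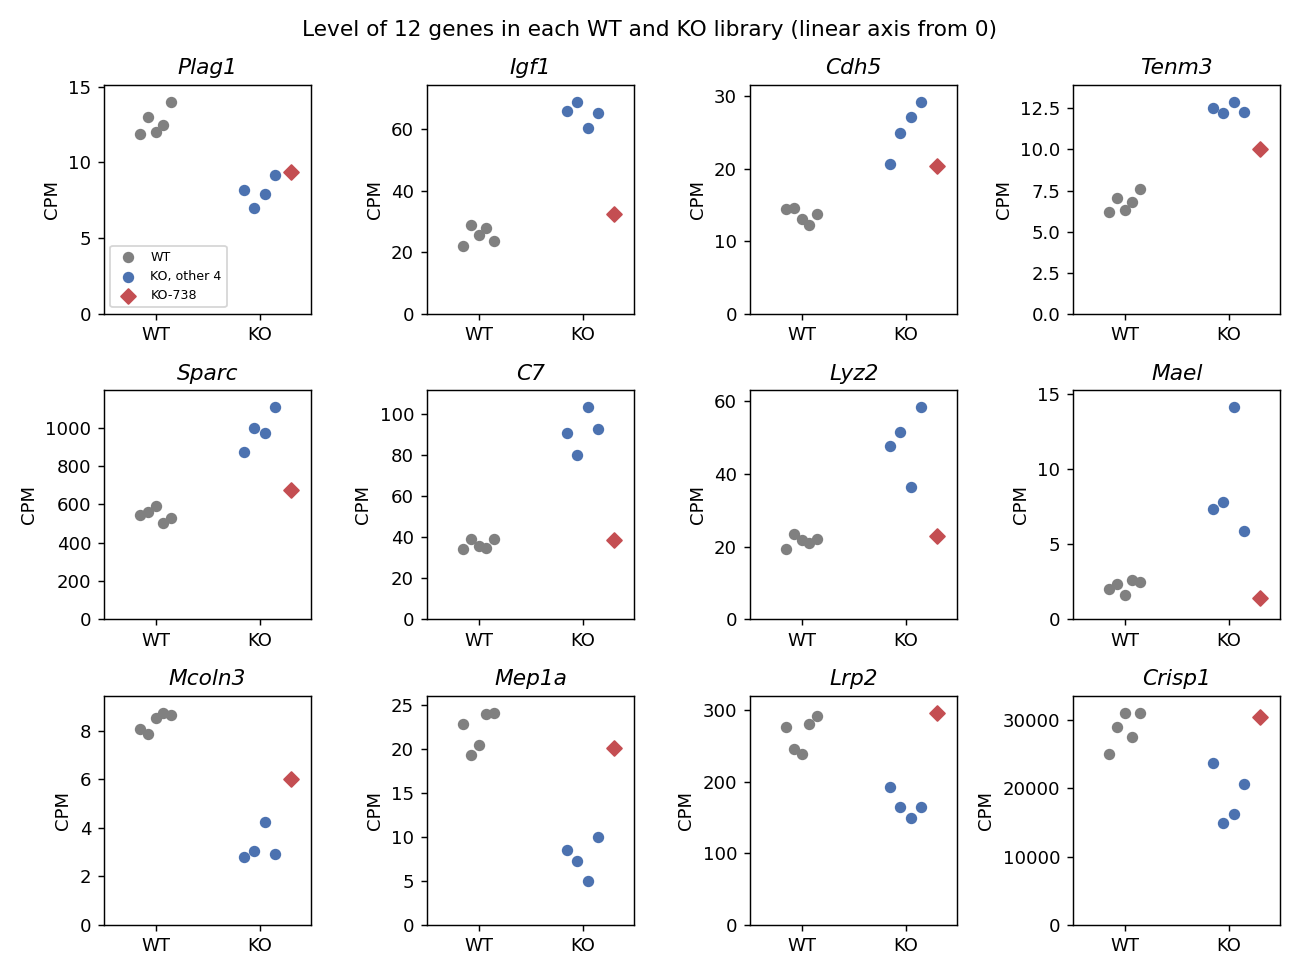
Each panel plots 1 gene in CPM (linear axis from 0) for the 5 WT libraries (grey), the other 4 KO libraries (blue) and KO-738 (red diamond), 1 point per animal. KO-738 is apart from WT for Plag1, Igf1, Cdh5, Tenm3, Sparc and Mcoln3, within or beyond the opposite side of WT for C7, Lyz2, Mael, Mep1a, Lrp2 and Crisp1.

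Markers of germ cells and of ciliated cells were followed because the epididymis lies against the testis and the efferent ducts and holds sperm. Of 16 markers of spermatogonia and meiotic cells, 5 rose and 1 fell; of 20 of spermatids and sperm, 2 rose; and of 22 of ciliated efferent duct cells, 3 rose. Mael, a germ cell gene of transposon control, stood at 2.04, 2.31, 1.64, 2.59 and 2.49 CPM in WT and at 7.32, 7.77, 14.1, 1.41 (KO-738) and 5.85 CPM in KO. KO-738 was below every WT library and the other KO libraries were above all of them. Without KO-738 the 3 lists gave 7, 11 and 9 that rose. In the genes called without it, KO-738 was beyond the WT range in 0 of 8, 1 of 11 and 0 of 9, against 27% of all such genes.

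The summed level of the meiotic markers was 118 to 136 CPM in WT, 135 to 215 in the 4 other KO libraries and 114 in KO-738. That of the spermatid markers was 125 to 211, 172 to 394 and 129 CPM in the same order. Prm1, a defining protamine of late spermatids, was at 0.502 to 3.21 CPM in WT and 0.537 to 7.83 CPM in KO, and passed the test in neither fit. On leaving out WT-709, WT-719, WT-720, WT-726 or KO-696, 0 of the meiotic markers rose. In the spermatid and the ciliated cell lists 0 rose without WT-709, WT-720, WT-723, KO-695 or KO-696. All 3 lists had 0 that rose in the fit of WT and KO alone and with the number range as a term. The part of germ cells or of adjoining ducts in the other results was not tested.

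A further set was chosen by the largest changes among genes called in both fits with the groups apart and a mean of 2 CPM or more. Lying beyond WT in every KO library was thus part of the choice. Among those that rose were Cnmd, a secreted inhibitor of vessel growth in cartilage, Rxfp2, the receptor for the hormone that guides testis descent, Scube2, a secreted carrier of hedgehog ligands, the protease inhibitor Serpina3c and Npr3, the clearance receptor of natriuretic peptides. Rxfp2 stood at 1.38, 1.4, 1.96, 1.57 and 1.79 CPM in WT and at 5.19, 3.91, 4.04, 2.1 (KO-738) and 17.4 (KO-739) CPM in KO. KO-739 was far above the other KO libraries and KO-738 just cleared WT, and the log2 fold change was 2.00 ± 0.46 (adjusted p 0.0266, edgeR). Npr3 was at 7.83 CPM in KO-738, between KO-696 at 6.81 and KO-694 at 8.09, against 3.69 to 5.82 in WT. Gbp5, Aurkc, Brinp3 and Mmp19 completed the 10 with Wt1, at log2 fold changes of 1.45, 1.41, 1.27 and 1.25. Not all of the 10 calls withstood leaving out a single library. That of Gbp5 was lost without any 1 of 6 libraries, those of Rxfp2 and Aurkc without any 1 of 5, and that of Cnmd without KO-696.

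Aurkc, a kinase of dividing germ cells, was the exception among them in its order. It stood at 0.96, 1.4, 1.75, 0.804 and 0.856 CPM in WT and at 2.32, 2.18, 2.93, 5.89 (KO-738) and 2.06 CPM in KO. KO-738 was here the highest library, and without it the log2 fold change went from 1.41 to 1.05.

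The genes that fell in every KO library were led by Mcoln3, an endolysosomal cation channel. It stood at 8.06, 7.87, 8.5, 8.73 and 8.64 CPM in WT and at 2.79, 3.02, 4.23, 6.01 (KO-738) and 2.93 CPM in KO. WT values were tight, KO-738 lay midway, and the log2 fold change was -1.14 ± 0.18 (adjusted p 0.00436, edgeR) and -1.36 without KO-738. Pzp, a broad protease inhibitor of the alpha-2-macroglobulin family, stood at 9.49 to 11.8 CPM in WT and at 3.91, 5.06, 7.3, 6.98 (KO-738) and 3.61 CPM in KO. There KO-738 was not the highest KO library. The others were the kinase Stk32b, the potassium channel subunit Kcns1, thyroglobulin (Tg), the adaptor Shd, the kallikrein Klk1b22, Caps2, the calcium channel Cacna1b and Sfrp2, with log2 fold changes of -1.04, -0.99, -0.95, -0.94, -0.89, -0.82, -0.81 and -0.79. Klk1b22 has close relatives in the kallikrein family, between which reads may have been shared. Some of these calls depended on single libraries. That of Tg was lost without any 1 of 8 libraries, and that of Cacna1b without any 1 of 7. Those of Stk32b, Kcns1 and Klk1b22 were each lost without any 1 of 4, and that of Caps2 without KO-696.

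Genes that changed with KO-738 inside the WT range were led by Ren1, the renin gene. It stood at 0.154, 0.251, 0.393, 0.256 and 0.204 CPM in WT and at 1.97, 1.82, 4.02, 0.313 (KO-738) and 5.7 CPM in KO. The other 4 KO libraries were all above every WT library, and the log2 fold change was 3.43 ± 0.60 (adjusted p 0.00647, edgeR). Ctla2a, a cathepsin inhibitor, was at 16.1 to 26.5 CPM in WT, 69.3 to 236 CPM in the other KO libraries and 22 CPM in KO-738. Grp, a neuropeptide precursor, Kif2b, a kinesin, and Spesp1, a protein of the sperm head, rose by 2.30, 2.38 and 2.24 on the log2 scale. Ftcd, an enzyme of histidine breakdown, fell by 0.81. The calls of Kif2b, Spesp1 and Ftcd were lost without any 1 of 4, 3 and 5 libraries. Those of Mep1a, Azgp1 and Pappa2, given above, were lost without any 1 of 7, 6 and 3. The calls of Ren1, Ctla2a, Grp and Treh withstood leaving out each single library.

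The genes at which KO-738 differed most from the mean of the other 4 KO libraries, given as values without a test, included some that varied within WT as well. Lars2, the mitochondrial leucyl-tRNA synthetase, was at 1705 CPM in KO-738, 57.8 to 142 in the other KO libraries and 79.3 to 567 in WT. The 567 CPM was in WT-726, the WT library with the highest share of ribosomal RNA genes (0.472%, against 1.49% in KO-738). Whether the Lars2 counts go with that share was not tested. Ranbp1, a regulator of nuclear transport, was at 28.1 CPM in KO-738 and 20.9 CPM in WT-709, and at 1.82 to 2.31 CPM in the other 8. Svs1 and Spink14, both secreted proteins, were at 24.4 and 47.3 CPM in KO-738, within or near the WT ranges of 14.2 to 21 and 19.4 to 65.6, and at most at 7.19 and 14.7 CPM in the other KO libraries. On the low side, Clec2m, Spata16, Papolb, Pebp4 and Tex33 were at 0.908, 0.251, 0.626, 0.219 and 0.282 CPM in KO-738, each below all WT libraries.

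**Figure D4:**
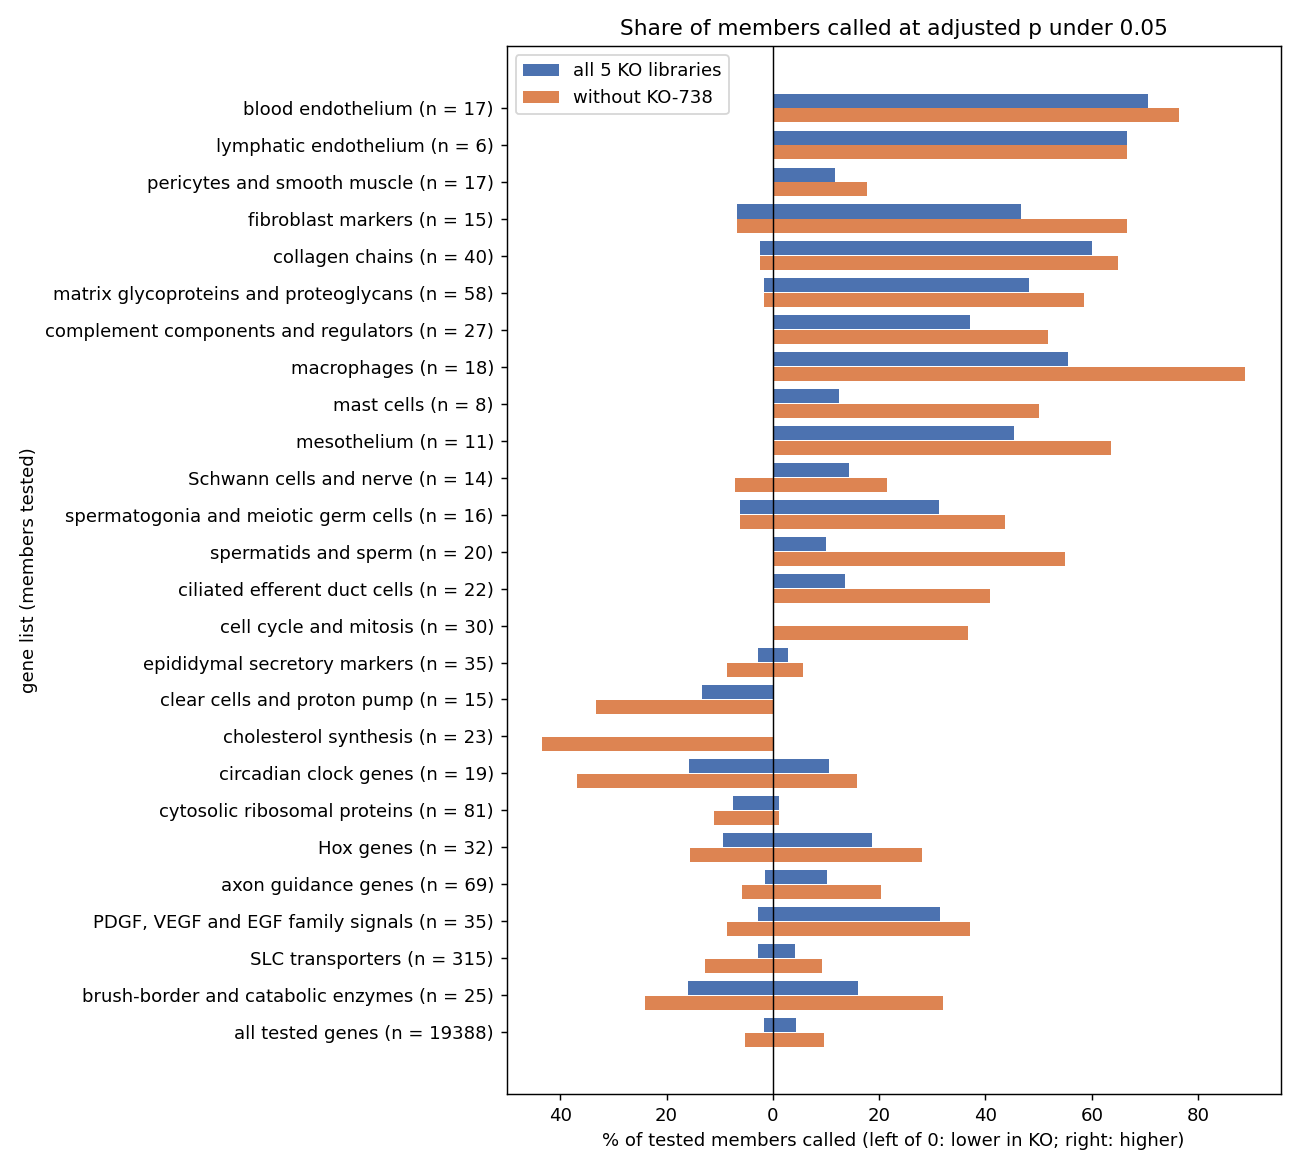
Bars give the percent of tested members of each list called at an adjusted p under 0.05 (edgeR), to the right where higher in KO and to the left where lower, with all 5 KO libraries (blue) and without KO-738 (orange). Blood endothelium goes from 12 to 13 of 17, macrophages from 10 to 16 of 18, and cholesterol synthesis from 0 to 10 of 23 lower; all tested genes are the bottom row.

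Calls were spread over the genome and over levels. Between 4.65% and 7.67% of the tested genes were called on each chromosome other than Y. The X chromosome was the one with more genes lower (2.99%) than higher (2.69%). Of 15447 protein coding genes 5.27% rose and 1.51% fell, while of 2373 long noncoding RNAs 0.927% rose and 2.06% fell. Genes at a mean of 3 to 10 CPM were called most often, at 8.6%, and those over 300 CPM at 2.99%. Leaving KO-738 out, these shares were 20.4% and 13.1%. At 30 to 100 CPM 197 genes then rose and 292 fell, and over 300 CPM 14 and 43. With all KO libraries these counts were 116 and 71, and 7 and 6. The share called per chromosome other than Y was then 12.8% to 17.5%, highest on X with 46 higher and 71 lower. Protein coding genes were then called at 16.6% and long noncoding RNAs at 9.27%.

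PLAG1 binds a bipartite sequence, a core of GGGGC or GAGGC followed after 6 to 8 bases by a cluster of G (AGGG or AGGT or GGGG or GGGT). Its match on either strand was sought in the 250 bases before the first start listed for each gene in a RefSeq promoter table (GRCm38.p6). It was present in 3247 of 14099 tested genes with an entry (23%), in 121 of 602 genes that rose in both fits (20.1%) and in 65 of 232 that fell in both (28%). Of the 20 genes with the largest changes in every KO library, 17 had an entry and 2 of them held a match, both among those that fell. Their sequences are shown because they are the only such windows, with the match in capitals. Stk32b has 1 match, on the strand opposite to the gene, at chr5:37717154-37717403 (minus strand), and Cacna1b has 2 at chr2:24763153-24763402 (minus strand).
Stk32b: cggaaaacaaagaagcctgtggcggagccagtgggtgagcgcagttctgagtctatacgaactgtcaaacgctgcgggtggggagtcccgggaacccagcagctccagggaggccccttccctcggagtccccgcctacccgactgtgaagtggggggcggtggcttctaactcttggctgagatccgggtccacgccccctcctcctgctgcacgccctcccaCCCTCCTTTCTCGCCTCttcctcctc
Cacna1b: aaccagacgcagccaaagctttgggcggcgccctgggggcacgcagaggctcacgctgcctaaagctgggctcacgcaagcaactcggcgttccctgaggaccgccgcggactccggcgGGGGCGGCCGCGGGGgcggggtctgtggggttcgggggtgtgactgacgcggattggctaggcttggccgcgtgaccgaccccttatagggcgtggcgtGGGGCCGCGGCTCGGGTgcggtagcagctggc
Stk32b stood at 7.02 to 8.43 CPM in WT and at 3.83, 2.54, 2.1, 6.8 (KO-738) and 3.4 CPM in KO, and Cacna1b at 10.5 to 13.1 CPM in WT and at 7.82, 3.66, 5.38, 10.3 (KO-738) and 5.97 CPM in KO. In both genes KO-738 was just below the lowest WT library. A match describes the letters of the window only.

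How far the calls rest on the choice of animals was measured gene by gene. With the number range of the animals as a term in the fit, 177 genes were called, 157 of them higher, and 165 of these were among the 1163. Without KO-738 and with that term, 1476 were called, of which 1221 were among the 2923. Among the animals numbered 700 and above alone, where KO is KO-738 and KO-739, edgeR called 0 of 19801 genes, and 3073 had an unadjusted p under 0.05. Of 168 called genes chosen by the rules for naming or as leading members of a list, 168 were called without KO-738, 82 in a fit of the WT and KO libraries alone and 50 with the number range as a term. Some were named only because they were also called without KO-738, and the others for a small p or a large change, so that these counts describe a chosen set. Over all 1163 called genes the shares called in the same direction were 99.4%, 24.3% and 14.2%. Plag1, Wt1, Scube2, Mcoln3, Pzp, Ren1, Grp, Hoxa5, Hoxb9, Igf1, Igfbp4, Tenm3, Robo4, Slit1, Penk, Col4a4, Sparc, Timp2, Cdh5, Vwf, Aldh1a2 and Cx3cr1 were among those 50.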

How the data were processed

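RNA was measured by sequencing of stranded mRNA libraries from epididymides that were teased apart and rinsed to remove sperm, per the labels' protocols. The deposited values are raw read counts per NCBI gene ID in 1 table of all 15 libraries. Per the submitters' processing notes, the tools were HISAT2 2.0.5, Subread 1.4.6p5 with featureCounts, and FastQC, and the build was GRCm38.p6. The annotation release and the strand setting of the counting are not given in the sources used here, so overlapping and antisense genes and near-identical copies are uncertain. Mitochondrially encoded genes are not analysed here.

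Symbols came from RefSeq (40290 of 41591 IDs) and GENCODE (87), and 1214 had none. Counts were tested with edgeR 4.0.16 in R 4.3.3 (TMM scaling, filterByExpr, robust quasi-likelihood test, 12 residual degrees of freedom) with 1 mean for each genotype, all 15 libraries being fitted together. The contrast was KO minus WT. P-values are two-sided, adjusted by Benjamini-Hochberg over all tested genes, with a threshold of 0.05. The fit without KO-738 was run the same way. CPM use TMM library sizes, log2 CPM a prior count of 2, and errors are SE of the fit. The biological coefficient of variation was 16.3%. Counting error adds to it, and at these depths is not small beside it in genes of a few CPM or less. Depth is given in the report.

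The test was checked on simulated counts. Alternatives were RLE and upper quartile scaling, DESeq2 1.42.0, limma 3.58.1 (voom, weighting samples by quality), other low-count filters, the WT and KO libraries alone, the animals' number range as a term or restriction, and dropping 1 library at a time. After the data were seen, these were added: fits without KO-738 by DESeq2, with the 2 groups alone and with the number range, and a fit without KO-738 and KO-739.

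Genes were named by a rule: Plag1; the 10 largest changes each way among protein coding genes called in both fits with the groups apart and at least 2 CPM; the 5 largest each way with KO-738 inside the WT range; the 5 smallest p-values each way among genes called only without KO-738; the 5 largest differences each way of KO-738 from the other KO libraries; and up to 4 members of each of 60 gene lists by smallest p. Listed genes named beyond it were chosen after their values were seen. The libraries compared, the lists and the rules were chosen with earlier results of these data known.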

Additional observations from a re-analysis of the deposited data

Results flagged for a closer look

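Within groups of 5 libraries, a value was singled out where its gap to the nearest other was wide for the range of the group (Dixon's test at the 95% level). This held in 12 of 94 groups tested. Chance gives about 1 in 20, but some of the genes tested were named because of where KO-738 lay, Spesp1 among them, so the count cannot be read against that share.

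Of these, 6 concerned KO-738. It was far below the other KO libraries for Scube2 at 1.22 CPM, for Spesp1 at 0.313 CPM, for the macrophage list at 0.03 and for the complement list at 0.15, both as mean log2 CPM above the WT mean. It was far above them for the clock gene list, at -0.04 where the others were at -0.17 to -0.16, and for the share of ribosomal RNA genes, at 1.49%.

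Library KO-739 stood apart in the skeletal muscle list, 7.17 above the WT mean on the log2 scale, and WT-720 was the high library of WT in the same list at 0.82. WT-720 was also far below the other WT libraries for Treh, at 1.5 CPM. WT-726 was far below them for Cnmd at 0.163 CPM and above them in ribosomal RNA genes at 0.472%. WT-723 had a score on the first principal component (log2 CPM) of -11.0, and the other WT libraries scores of -19.9 to -18.1.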

How the results depend on the processing

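No paired analysis was possible because no animal number occurs in both groups. Of 295 results recomputed, 168 were single called genes, and none of these changed direction. The rest were counts and the position of a library, for which only the size was compared. Over all called genes, 1152 of 1153 kept their sign among the animals numbered 700 and above, and 2922 of the 2923 called without KO-738 did without KO-739 too. These smaller fits reuse libraries of the fits that chose the genes, so that agreement in sign is in part built in and is no separate support. With 1163 genes called, 853 higher and 310 lower, leaving out 1 library gave 318 to 2923 genes called (258 to 1905 higher, 60 to 1018 lower), lowest without KO-696 and highest without KO-738. DESeq2 called 1930 (1313 higher, 617 lower), the fit of WT and KO alone 287 (246 and 41), the number range as a term 177 (157 and 20), the animals numbered 700 and above 0 (0 and 0), the fit without KO-738 and HET-693 2722 (1795 and 927), and that without KO-738 and KO-739 3265 (2036 and 1229). Genes lower were 614 by limma voom and 175 with no filter on low counts. Without KO-738, the number range as a term gave 1476 in place of 2923. The cause of these shifts was not tested, beyond the fewer libraries in each reduced fit.

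Of the 168 named or leading list genes, 76 were called on leaving out any 1 library, and 44 were lost under 1 alternative alone, the animals numbered 700 and above. That range holds 2 KO animals, 1 of them KO-738, and no WT animal is outside it. Depth limits genes of a few CPM or less, and most of all those under 1 CPM, such as Evx1.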

Other observations

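With all KO libraries, 1 gene of 81 for cytosolic ribosomal proteins rose and 6 fell (1.23% and 7.41%, against 4.4% and 1.6% of all genes). The median log2 fold change of the 81 was -0.13. In 6 of the 10 called without KO-738, KO-738 was beyond the WT range. Without WT-723, in the fit of WT and KO alone and with the number range as a term, 0 fell, and with upper quartile scaling 1 did. Rpl10, a protein of the large subunit, was at 704 to 875 CPM in WT and at 688, 633, 672, 687 (KO-738) and 684 CPM in KO, a log2 fold change of -0.24 ± 0.07 (adjusted p 0.0445, edgeR). The only riser, Rpl39l, a testis-enriched relative of a ribosomal protein, was at 0.251 CPM in KO-738 and 1.28 to 2.47 CPM in the other KO libraries. Ribosomal protein genes have many near-identical pseudogene copies, between which reads may have been shared.

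Of 12 markers of dendritic cells and MHC class II, 3 rose with and without KO-738, and 0 rose on leaving out any of the WT libraries or KO-696. Of 21 imprinted growth genes, 4 rose and 1 fell (19% and 4.76%, against 4.4% and 1.6% of all genes). The counts were 5 and 3 without KO-738, and 0 with the number range as a term. Peg3, an imprinted zinc finger gene, was at 11.3 to 12.7 CPM in WT and at 15.9, 16, 16.4, 12.9 (KO-738) and 17.8 CPM in KO, a log2 fold change of 0.39 ± 0.08 (adjusted p 0.0124, edgeR).

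Of 38 claudins and other junction genes, 4 rose and 2 fell (10.5% and 5.26%, against 4.4% and 1.6% of all genes). The counts were 7 and 3 without KO-738. Cldn8, a tight junction protein, was at 232 to 265 CPM in WT and at 205, 216, 181, 220 (KO-738) and 200 CPM in KO, with the groups apart and a log2 fold change of -0.31 ± 0.07 (adjusted p 0.0162, edgeR). Ltf, the iron-binding lactoferrin, was at 432 to 540 CPM in WT and at 286, 343, 213, 424 (KO-738) and 236 CPM in KO, a log2 fold change of -0.70 ± 0.16 (adjusted p 0.026, edgeR).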
